A study of Homo sapiens with 4 samples.

Results

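The ribosomal protein genes encode the proteins that, together with ribosomal RNA, build the small 40S and the large 60S subunit of the cytoplasmic ribosome. The 40S subunit decodes the mRNA, and the 60S subunit joins the amino acids. Most of these mRNAs begin with a C followed by a run of pyrimidines, the terminal oligopyrimidine (TOP) tract, through which mTOR and LARP1 control their translation and stability. Rows of the deposited count matrix were selected by symbol (RPL or RPS with a number and at most a short suffix, RPLP0 to RPLP2, or RPSA), outside chromosome Y, and by their count values: at least 400 counts over the 4 libraries. RPS27L was left out. The rule kept 80 of the 57905 genes in the matrix, 30 of the 40S and 50 of the 60S subunit. Of 87 rows that fit the symbol pattern, 7 were left out, and RPS28 (464 counts) was the member just inside the minimum. Outside it lay, for example, RPL3L, a muscle paralog of RPL3, with 117. Levels are given as scaled CPM, the count relative to the library total after TMM scaling. All 80 members had a mean of at least 1 CPM, as did 13966 genes in all, which are the genes tested below.

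The 4 libraries were reported as A549, a human lung adenocarcinoma cell line, and were made from poly(A) RNA, with 1 library per condition. One pool of cells carried a scramble hairpin (sc), and another a hairpin against the membrane receptor gene DCBLD2 (shDCBLD2). In the third the lentiviral expression vector was empty (vector), and the last carried the DCBLD2 coding sequence in it (DCBLD2_OE, labelled as overexpression). The hairpin vector carries a puromycin and the expression vector a blasticidin resistance gene, so vector and sc differ in lentiviral vector and resistance gene as well as in cell pool. The cells were stable pools made by lentiviral infection with virus from 293T cells. The hairpin behind the sequenced library is not stated in the sources used here.

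Library totals lay between 16601633 and 21537283 counts. With 1 library per condition there is no replicate error and no p-value. Intervals in brackets are exact 95% Clopper-Pearson intervals, which cover counting error only. DCBLD2 itself had 9859 counts in sc, 4259 in shDCBLD2, 7970 in vector and 4000 in DCBLD2_OE, so it was lower, not higher, in the library labelled DCBLD2_OE (log2 ratio -0.84 against vector). That library also held 2104 counts of CDKN2A and 104 of MTAP, neighbours in a locus that A549 is known to have lost. CDKN2A had 0 counts in each of the other 3 libraries and MTAP 9, 33 and 11 counts in sc, shDCBLD2 and vector. All 8 A549-like and all 5 epithelial markers were above 3 counts in every library. The epithelial markers summed to 13496, 7635, 9566 and 14698 scaled CPM in sc, shDCBLD2, vector and DCBLD2_OE. Of 10 fibroblast-like markers, 5 to 8 were above 3 counts, 1 was at 0 in every library, and their sum was 39.2, 60.5, 46.1 and 86.3 scaled CPM in the same order. COL1A1 made up most of that sum (32.7, 54.0, 35.5 and 63.1). COL1A2 had 17, 1, 0 and 67 counts, COL3A1 9, 18, 6 and 68, and POSTN 0, 0, 0 and 42. THY1 was instead highest in vector, with 64, 85, 160 and 114 counts, and PDGFRB in sc, with 13, 4, 8 and 10. No marker of alveolar type 2 cells, the lineage usually assigned to A549, reached a mean of 1 CPM. The part of other cells in the results on DCBLD2_OE was not tested, and every such result is one on the library labelled so.

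The start of a few members is shown because the TOP tract is the feature that ties this group of mRNAs together. The annotated start base is base 16 of each 30-base window, from RefSeq on GRCh38.p14, written 5′ to 3′ on the strand of the gene, and capitals mark the C and pyrimidine run that begins at that base.
RPS19 (chr19:41860240-41860269, plus strand): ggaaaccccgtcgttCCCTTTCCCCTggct
RPS21 (chr20:62387088-62387117, plus strand): ggtgactagctgcttCCTTTCTCTCTCgcg
RPS27 (chr1:153990747-153990776, plus strand): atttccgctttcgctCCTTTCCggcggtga
RPL36 (chr19:5690280-5690309, plus strand): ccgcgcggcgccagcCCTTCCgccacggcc
RPL22 (chr1:6199581-6199610, minus strand): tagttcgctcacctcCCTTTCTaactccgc
RPL22L1 (chr3:170870181-170870210, minus strand): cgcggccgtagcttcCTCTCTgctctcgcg
RPL26 (chr17:8383179-8383208, minus strand): aagcagcgtgtagttCTCTTCCCTTTTgcg
RPL26L1 (chr5:172958714-172958743, plus strand): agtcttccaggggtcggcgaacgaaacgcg
RPL7L1 (chr6:42879601-42879630, plus strand): cggaagtgcggcgccgtagctaggagcgga
RPL9 (chr4:39458908-39458937, minus strand): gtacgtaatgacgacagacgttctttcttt

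Of the 80 members, 65 had an entry in the promoter table. Only the first listed entry of 300 bases per gene symbol was used, and other annotated starts of a gene were not examined. A C followed by at least 4 pyrimidines stood at the annotated start of 43 of these members (66.2%), against 4.04% of all 27305 promoters kept in this way. With 5 bases of slack on either side of the start the shares were 78.5% and 21.1%. The run was 5 to 19 bases long, and longest in RPL39. The paralogs RPL26L1 and RPL7L1 had no such run, nor did RPL9, whose pyrimidines begin a few bases after the annotated start. In the 300 bases from 250 before the start to 50 from it on, the ETS-type sequence CCGGAAG (both strands searched) occurred in 22 of the 65 members (33.8%) and in 10.7% of all promoters. The YY1-type sequence AAGATGGCG was in 6 members (9.23%) and in 1.85% of promoters. TATAAA was in 6 members (9.23%, against 3264 of the 27305 promoters), and CACGTG, the E-box, was in 4 (6.15%, against 7.43%). A match says only that these letters are present.

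The members took 7.08% of all counts in sc (7.07 to 7.09), 6.62% in shDCBLD2 (6.61 to 6.63), 9.15% in vector (9.14 to 9.16) and 9.07% in DCBLD2_OE (9.06 to 9.08). The share was thus higher in both libraries with the expression vector than in both with the hairpin vector, and the 40S and 60S members moved side by side, from 2.85% and 4.23% in sc to 3.71% and 5.44% in vector. A lower level per cell and fewer cells of a kind cannot be told apart in such bulk samples.

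**Figure D1:**
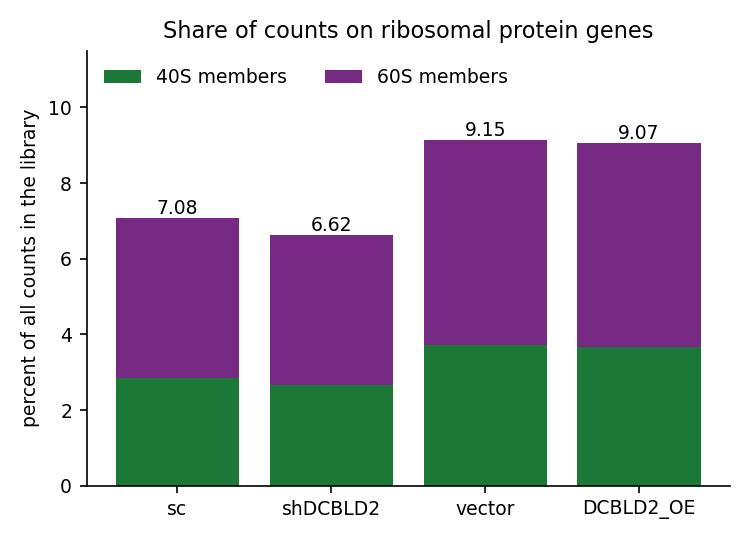
Share of all counts that fell on the 80 ribosomal protein genes (percent, vertical axis from 0) in each of the 4 libraries, with the 30 members of the 40S subunit and the 50 of the 60S subunit stacked. The bars of vector and DCBLD2_OE reach 9.15% and 9.07%, and those of sc and shDCBLD2 7.08% and 6.62%.

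Compared per length, as deposited FPKM (counts divided by exonic length and library total), the members differed widely although their proteins enter the ribosome in equal number, with few exceptions. Mean FPKM over the 4 libraries ran from 2.98 for RPS28 to 1980 for RPS2, with a median of 209, against a median of 4.21 for all genes tested. Among the highest were RPS2 (40S), RPL13A and RPL8 (60S), and RPS16 (40S), with means of 1980, 1782, 1532 and 1188. The lowest 5 were RPS28, RPL36A, RPL21, RPS26 and RPL7L1, with 2.98, 3.46, 6.44, 7.94 and 13.6. The order hardly moved between libraries: Spearman's rho over the 80 members, a description of libraries reported as 1 cell line, was 0.955 to 0.994 for the 6 pairs of libraries. The pairs with DCBLD2_OE had the lowest values (0.955 to 0.976).

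Many ribosomal protein genes have processed pseudogenes of near-identical sequence. Of the 50-base windows of a member's annotated mRNA, a median of 27.9% occurred in a transcript of another gene, from 0.17% for RPLP2 to 90.3% for RPL17. It was 80.3% for RPL36A, 62.7% for RPL21, 27.3% for RPS26 and 35.6% for RPS28, and levels of members with high shares are uncertain because the sources used here do not say how such reads were counted. The FPKM divisor is the length of all annotated exons of a gene, which had a median of 2869 bases over the members and exceeds the usual mRNA, with a median of 818 bases. Mean FPKM rose with the GC content of the coding sequence across members (rho 0.58, n = 80) and showed nearly no relation to the shared windows (rho -0.06). The deposited coordinates of 39 members overlap another entry that is not a small RNA, and strand use in counting is not stated in the sources used here, so reads from such pairs may be split or dropped.

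Vector against sc asks how far the control pools, which differ in lentiviral vector and resistance gene, stand apart. Nearly the whole group was higher in vector: 77 of 80 members had a log2 ratio above 0, against 49.2% of all genes tested. The median ratio was 0.40 (interquartile range 0.33 to 0.48), a narrow band beside that of all genes tested, whose median was -0.01 and whose quartiles were -0.26 and 0.25. Those genes lay at lower levels (median FPKM 4.21 against 209), so their spread holds more counting error. Genes of like level were not set beside the members. The summed counts of the members were 1.35-fold higher (log2 ratio 0.43, interval 0.43 to 0.44). The 40S median was 0.42 and the 60S median 0.40, a difference of 0.02. The 43 members with a pyrimidine run at the annotated start had a median of 0.41, and the 22 matched members without it 0.38. No member was 2-fold apart, where 2.22% of all genes tested were 2-fold higher and 1.89% lower with an interval that left out no change.

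At 1.5-fold, 9 members were higher in vector and 0 lower, against 7.07% and 6.67% of genes tested. They included RPL13, RPL13A, RPL18, RPL22L1, RPL39, RPS9, RPS19 and RPS28. RPL18, of the 60S subunit, was at 1080 scaled CPM in sc, 1242 in shDCBLD2, 1678 in vector and 1840 in DCBLD2_OE, a log2 ratio of 0.64 (0.61 to 0.66) between vector and sc. RPS19, a 40S protein whose loss causes Diamond-Blackfan anaemia, was at 1908, 1958, 2936 and 2713 scaled CPM in the same order (0.62, 0.60 to 0.64). RPS9 stood at 1139, 1112, 1812 and 1878 (0.67, 0.65 to 0.69). In these 3 the libraries with the expression vector were the high ones, as in 67.5% of members and 25.6% of all genes tested. RPL22L1 went otherwise, at 33.6, 62.3, 58.1 and 12.8 scaled CPM.

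The members lower in vector than in sc were 3. RPL7L1, a paralog of RPL7 that acts in ribosome assembly, was at 103 scaled CPM in sc, 138 in shDCBLD2, 85.6 in vector and 98.4 in DCBLD2_OE (log2 ratio -0.27, -0.36 to -0.17). The intervals of RPL26L1 (-0.03, -0.17 to 0.11) and RPS26 (-0.15, -0.44 to 0.14) included no change. Across the 4 libraries, 54 of 80 members (67.5%) were higher in both vector and DCBLD2_OE than in both sc and shDCBLD2, against 25.6% of all genes tested. RPL26L1 and RPL7L1 were the members lower in both, 2.5% of the group against 28.2% of genes tested.

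Coding length moved with this comparison over all genes. Its log2 ratio fell with the length of the coding sequence across the 12354 genes tested that have a coding transcript in GENCODE 29 (rho -0.37), and less so across the members (rho -0.11). In the 3 ranges of coding length that divide the members into groups of 26 or 27, other genes had medians of 0.21, 0.15 and 0.08 from the shortest to the longest, and the members 0.41, 0.40 and 0.37. The members' median was therefore above that of other genes in each range. The ratio also rose with the GC content of the coding sequence (rho 0.30 over the 12354 genes, 0.26 over the members). In 3 GC ranges from low to high, other genes had medians of -0.11, -0.08 and 0.03 and the members 0.39, 0.37 and 0.47. The part of length, GC or RNA quality in the remaining difference was not tested, and lentiviral vector, cell pool and library cannot be told apart.

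**Figure D2:**
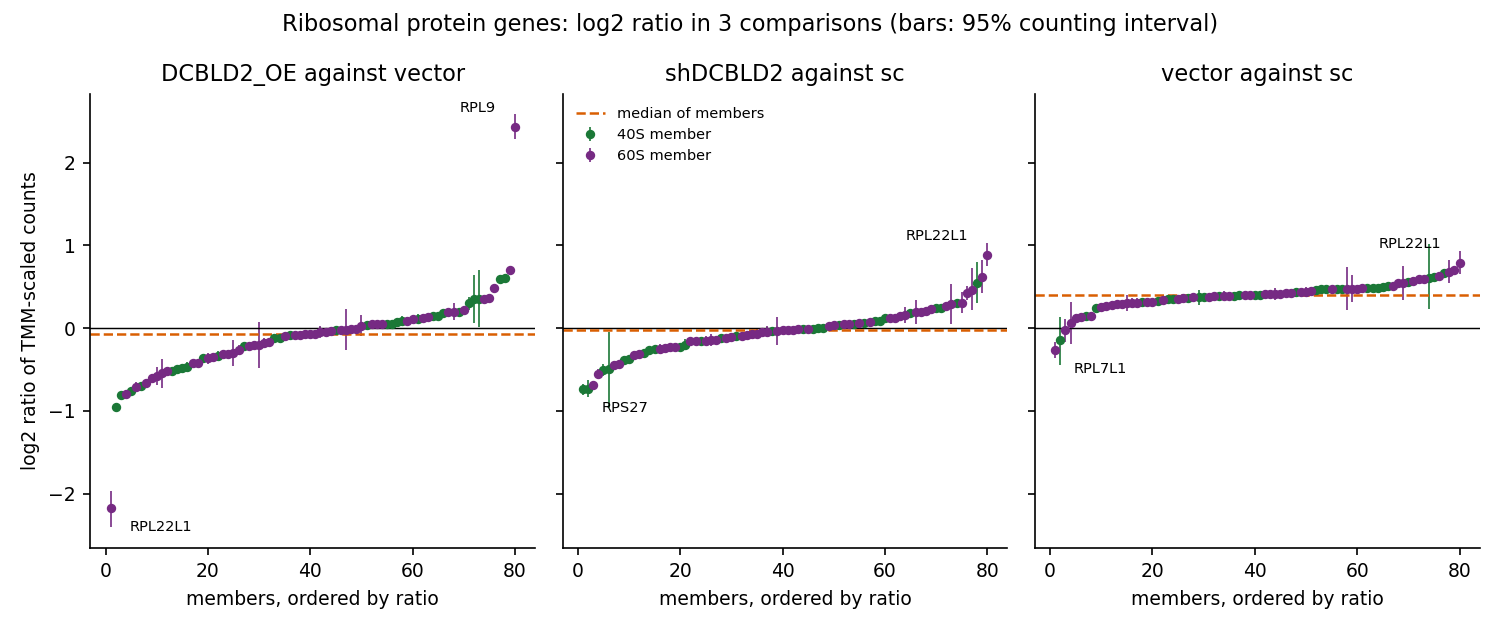
Log2 ratio of TMM-scaled counts (vertical axis) of the 80 members, ordered from lowest to highest within each of the 3 comparisons, with 95% counting intervals as bars and the median as a dashed line. The points of vector against sc form a flat band around 0.40 with 77 of 80 above 0, while the other comparisons cross 0 near the middle and end in single members such as RPL9 and RPL22L1.

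DCBLD2_OE against vector was meant to show the effect of more DCBLD2, although DCBLD2 was lower in this library. The group as a whole barely moved. The median log2 ratio of the members was -0.07, beside -0.04 for all genes tested, 31 were higher and 49 lower, where 47.1% of genes tested were higher, and the summed counts had a ratio of -0.03 (-0.04 to -0.03). The spread among members was larger than in vector against sc, with quartiles of -0.35 and 0.11. The 40S median was 0.0047 and the 60S median -0.07, a difference of 0.0775 that was 0.0153 among members with at least 4000 counts. Members with a pyrimidine run at the annotated start had a median of -0.07, and those without it -0.08.

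Single members stood far from the rest. RPL9, a protein of the 60S subunit, was at 16.9 scaled CPM in sc, 26.1 in shDCBLD2, 24.6 in vector and 133 in DCBLD2_OE, with 330, 562, 452 and 2200 counts. Its log2 ratio was 2.43 (2.29 to 2.59), the only member 2-fold higher, against 6.42% of genes tested. DCBLD2_OE was the highest library by far, and sc was the lowest. RPL9 shares 87.3% of its 50-base windows with transcripts of other genes, and its pseudogene rows summed to 21, 32, 27 and 22 counts, few beside the counts of RPL9 itself. A pseudogene row of RPS2, RPS2P5, moved in a like way, with 2929, 3232, 4428 and 14415 counts in sc, shDCBLD2, vector and DCBLD2_OE (log2 ratio 1.86 against vector), while RPS2 itself was at 3712, 3944, 5459 and 6046 scaled CPM (0.15). Reads of such near copies may be placed on one or the other, so both rows are uncertain.

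RPL22L1, the paralog that can take the place of the RNA-binding protein RPL22 in the 60S subunit, was the only member 2-fold lower, against 5.35% of genes tested. It was at 33.6 scaled CPM in sc, 62.3 in shDCBLD2, 58.1 in vector and 12.8 in DCBLD2_OE, with 657, 1343, 1067 and 211 counts, a log2 ratio of -2.18 (-2.40 to -1.97) against vector. DCBLD2_OE was thus the lowest library and sc the next. Only 0.70% of its windows occur elsewhere, and it has no pseudogene counts. RPL22 itself was at 196, 190, 241 and 188 scaled CPM, with a ratio of -0.36 (-0.43 to -0.30). Against sc in place of vector, RPL22L1 was again the one member 2-fold lower, and RPL9, RPL36, RPS10 and RPS15 were among those 2-fold higher. Of all genes tested, 8.08% were 2-fold higher and 8.98% lower against sc.

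At 1.5-fold, RPL9, RPL36, RPS10 and RPS15 were higher in DCBLD2_OE than in vector, against 12.8% of genes tested. RPL36 was at 264, 238, 346 and 561 scaled CPM in sc, shDCBLD2, vector and DCBLD2_OE (log2 ratio 0.70, 0.65 to 0.74). RPS15 was at 610, 725, 848 and 1279 (0.59, 0.56 to 0.62), and RPS10 at 271, 334, 376 and 571 (0.60, 0.56 to 0.65). These were highest in DCBLD2_OE and lowest in one of the hairpin libraries. RPL29, the fifth in the order, had a ratio of 0.49.

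The 9 members at least 1.5-fold lower, against 17.8% of genes tested, were RPL22L1, RPS27A, RPS7, RPL7, RPS6, RPL11, RPS24, RPL23A and RPL6. RPS27A, which is made as a fusion with ubiquitin, was at 386 scaled CPM in sc, 440 in shDCBLD2, 534 in vector and 276 in DCBLD2_OE (log2 ratio -0.95, a fold of 0.517). RPS6, the 40S protein phosphorylated by S6 kinase, was at 1198, 1123, 1322 and 779 (-0.76, -0.79 to -0.73). RPS7 stood at 526, 625, 671 and 382 (-0.81, -0.86 to -0.77), and in all 3 DCBLD2_OE was the lowest library. RPL5 and RPL11 bind 5S ribosomal RNA and, when free, the p53 ligase MDM2. RPL11 was at 261, 284, 351 and 214 scaled CPM (-0.71, -0.77 to -0.65), while RPL5 was at 514, 537, 618 and 550 (-0.17). The stalk proteins of the 60S subunit, which recruit translation factors, showed small ratios of 0.05 for RPLP0, -0.03 for RPLP1 and 0.09 for RPLP2.

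The order of the members in this comparison ran with the GC content of their coding sequences, and so did that of all genes. The log2 ratio rose with GC with a rho of 0.62 over the 80 members and of 0.60 over the 12354 genes tested with a coding transcript. Without RPL9 and RPL22L1, left out after their values were seen, the rho over members was 0.66. The 27 members of lowest GC (40.4% to 47.6%) had a median of -0.36 with 3 higher, the 26 in the middle -0.08 with 10 higher, and the 27 of highest GC (54.0% to 63.0%) 0.09 with 18 higher. Other genes in the same GC ranges had medians of -0.48, -0.08 and 0.23. RPL22L1 is the member with the lowest coding GC (40.4%) and RPS15 the one with the highest (63.0%), while RPL9, at 43.6%, lay far above the members of like GC. All these points share the same libraries. The part of base composition in library preparation or sequencing was not tested.

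**Figure D3:**
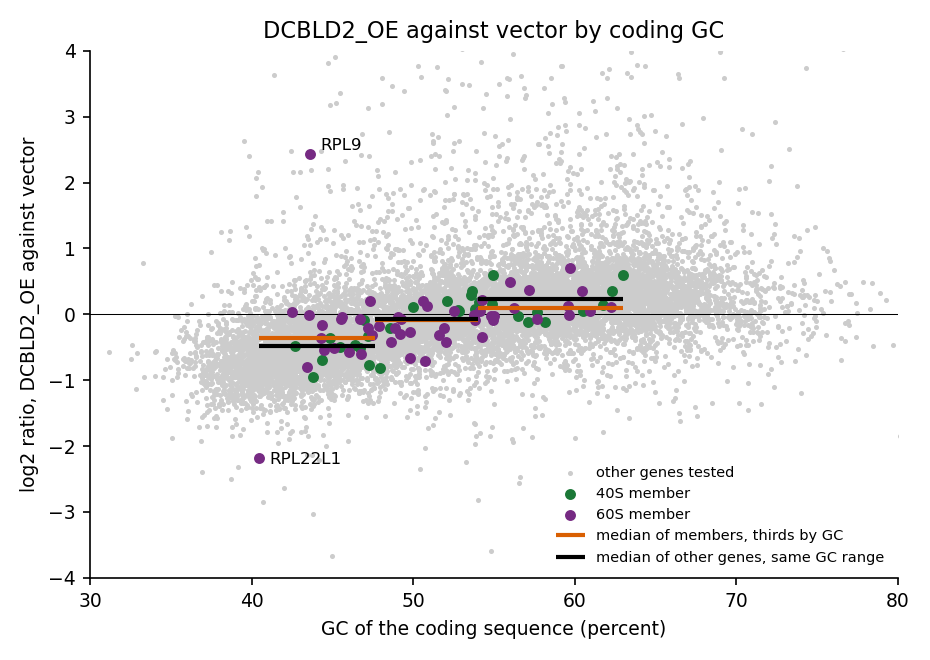
Log2 ratio of DCBLD2_OE against vector (vertical axis) by the GC content of the coding sequence in percent (horizontal axis) for the 40S and 60S members and, in grey, the other genes tested, 104 of which lie outside the plotted range. Bars give the medians of members and of other genes in the same 3 GC ranges, which rise from -0.36 to 0.09 and from -0.48 to 0.23, with RPL9 far above and RPL22L1 below the other members.

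The third comparison, shDCBLD2 against sc, addresses the loss of DCBLD2, which had a log2 ratio of -1.35. No member was 2-fold apart, against 1.16% of genes tested higher and 5.62% lower. The median of the members was -0.03 beside 0.01 for all genes tested, 34 were higher and 46 lower, where 50.9% of genes tested were higher, and the summed counts had a ratio of -0.06 (-0.07 to -0.06). The median of all members was -0.0023 with DESeq2 size factors and -0.0583 with library totals. The 40S and 60S medians were -0.02 and -0.03. Members with a pyrimidine run at the annotated start had a median of -0.10, and those without it 0.07.

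The lowest members were small proteins. At 1.5-fold, RPS27, RPS29 and RPL37 were lower, against 11.6% of genes tested, and RPL38 and RPS21 came next. RPS27 was at 233 scaled CPM in sc, 139 in shDCBLD2, 325 in vector and 352 in DCBLD2_OE (-0.74, -0.81 to -0.67). RPS29 was at 95.2, 57.3, 123 and 152 (-0.73, -0.84 to -0.63), and RPL37 at 392, 243, 477 and 518 (-0.69, -0.74 to -0.64). RPL38, needed for translation of a subset of Hox mRNAs in the mouse, was at 292, 199, 361 and 344 (-0.55, -0.61 to -0.49), and RPS21 at 212, 149, 286 and 303 (-0.51, -0.57 to -0.44). In each of the 5, shDCBLD2 was the lowest library and sc the next. RPS29 overlaps an entry of the signal recognition particle RNA, RN7SL1, that had 364, 284, 330 and 529 counts.

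The coding sequences of these 5 are 168 to 291 bases long. Across members the ratio rose with coding length (rho 0.35, n = 80), while across all genes tested it did not (rho -0.08). The 27 members with the shortest coding sequences (under 401 bases) had a median of -0.15 with 7 higher, and the longer groups had medians of 0.01 and 0.00 with 13 of 26 and 14 of 27 higher. Other genes in these ranges had medians of 0.01, 0.09 and 0.05. The other members in that length range were low too: RPL37A (276 bases) had -0.45, and RPS28 (207 bases) -0.49 on 95 counts in sc. Shorter still, RPL41 (75 bases) had -0.12, RPL39 (153 bases) 0.20 and RPL39L (153 bases) -0.03. The value of RPL39 is uncertain, since its pseudogene rows had 583 counts in sc and 402 in shDCBLD2, beside 732 and 925 of its own. Fragment or size selection in library preparation was not tested.

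RPL22L1 and RPL9 were the members at least 1.5-fold higher in shDCBLD2 than in sc, against 4.93% of genes tested. RPL22L1 had a log2 ratio of 0.89 (0.75 to 1.03) and RPL9 one of 0.62 (0.43 to 0.83). RPS26 (0.54, 0.30 to 0.79), RPL21 (0.47, 0.22 to 0.72) and RPL7L1 (0.42, 0.34 to 0.51) came next, the first 2 on 220 counts each in sc. Over the 80 members the ratios of shDCBLD2 against sc and of DCBLD2_OE against vector, which share no library, had a rho of -0.11, and over all genes tested one of -0.30. DCBLD2 was lower in shDCBLD2 and in DCBLD2_OE than in the control of each.

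The L-suffixed paralogs are copies of other ribosomal protein genes, and some of their proteins can take the parent's place in the ribosome. The 4 among the members are RPL7L1, RPL22L1, RPL26L1 and RPL39L, and RPS27L and RPL36AL were outside the rule by name. Per length, RPL22L1 was below RPL22 in every library (FPKM of 14.8, 26.8, 24.5 and 5.46 against 40.9, 38.9, 48.3 and 38.1 in sc, shDCBLD2, vector and DCBLD2_OE). RPL26L1 stood at 38.8, 47.0, 36.4 and 30.1 FPKM against 198, 232, 250 and 177 for RPL26. RPL7L1 stood at 13.5, 17.8, 10.8 and 12.5 against 172, 178, 208 and 121 for RPL7. RPL39L, a paralog of RPL39 otherwise best known from testis, stood at 26.5, 25.4, 35.4 and 24.6 FPKM against 17.9, 20.1, 27.5 and 28.5. By FPKM RPL39L lay above RPL39 in 3 libraries and below it in DCBLD2_OE. That order depends on the length used. The FPKM divisor is 1060 bases for RPL39L and 2141 for RPL39, but their annotated mRNAs have 756 and 401 bases. In scaled CPM RPL39L was below RPL39 in every library. The log2 ratio of DCBLD2_OE against vector was -0.55 (-0.72 to -0.37) for RPL39L and 0.03 (-0.09 to 0.15) for RPL39. RPL39 also has pseudogene rows, with 583, 402, 780 and 606 counts in the 4 libraries beside 732, 925, 1103 and 1013 of its own. RPL26L1 shares 52.9% of its windows with other transcripts and RPL39L 2.55%. RPL10L had no count in any library, which allows up to 3 counts per library, and RPL3L had 21, 6, 45 and 45.

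**Figure D4:**
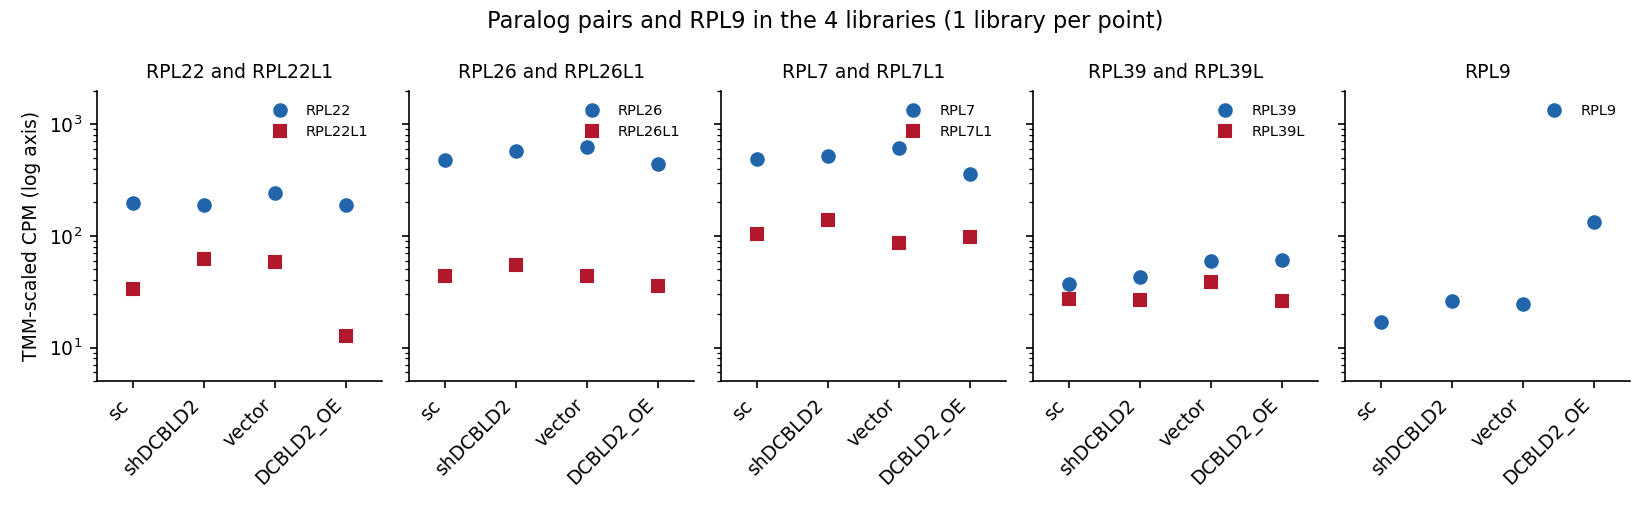
TMM-scaled CPM (log axis) in the 4 libraries for RPL22, RPL26, RPL7 and RPL39 with their L-suffixed paralogs, and for RPL9, with 1 library per point. RPL22L1 is lowest in DCBLD2_OE (12.8) and highest in shDCBLD2 (62.3), RPL9 is highest in DCBLD2_OE (133), and RPL39L lies below RPL39 in every library on this scale, which is not per length.

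Genes with related roles give the setting. In vector against sc, 49.2% of all genes tested were higher. Of 4 other ribosome components, 4 were higher in vector than in sc (median log2 ratio 0.28), with FAU, whose product is cleaved to the 40S protein eS30, at 0.41 and GNB2L1, the 40S scaffold RACK1, at 0.24. The 12 snoRNA host genes had a median of 0.40 with 11 higher, from SNHG12 at -0.09 to GAS5 at 0.88. The TOP class of these genes and of the next list was taken as listed, and their starts were not examined. A list of 18 genes of the TOP class, which holds translation factors and also TPT1, NPM1, HNRNPA1, VIM, NAP1L1 and IPO7, had a median of 0.19 with 16 higher, and the 75 mitochondrial ribosomal protein genes one of 0.19 with 63 higher. In contrast, the 43 ribosome assembly factors had a median of -0.21 with 10 higher, and the 24 other initiation factors one of -0.01 with 11 higher.

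In shDCBLD2 against sc the assembly factors were the high list, with a median of 0.46 and 42 of 43 higher, 14 of them at least 1.5-fold. Of all genes tested, 50.9% were higher there and 4.93% at least 1.5-fold higher. They ran from TSR2 (-0.20), a chaperone of RPS26, to NOP58 (0.83), a core protein of box C/D snoRNPs, which had 929, 1822, 753 and 321 counts in sc, shDCBLD2, vector and DCBLD2_OE. The initiation factors had a median of 0.26 with 22 of 24 higher, and the 19 RNA polymerase I genes one of 0.25 with 16 higher, led by CD3EAP at 1.18. The 75 mitochondrial ribosomal protein genes had a median of 0.19 with 65 higher. The cytoplasmic ribosomal protein genes, with -0.03, were not among the lists that were high there. In DCBLD2_OE against vector that list of 18 TOP genes had a median of -0.33 with 3 higher, from EIF2A (-1.24) to the elongation factor EEF2 (0.52), and the snoRNA hosts one of -0.27. The assembly factors had -0.18 with 14 higher, where 47.1% of all genes tested were higher. The 75 mitochondrial ribosomal protein genes had -0.18 with 27 higher.

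Of the 16 regulators past the filter, 4 were higher in vector than in sc, against 49.2% of all genes tested. The median of the 16 was -0.20. The mTOR substrate EIF4EBP1 was the highest in that comparison (0.47) and EIF4EBP2 the lowest (-0.66). The 8 genes of the ribosome stress response had a median of 0.13 in vector against sc, -0.29 in shDCBLD2 against sc and 0.06 in DCBLD2_OE against vector, where the stress gene SESN2 had 283 counts in vector and 870 in DCBLD2_OE (1.77). mRNA levels say nothing of the phosphorylation or translation that these regulators act on.

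**Figure D5:**
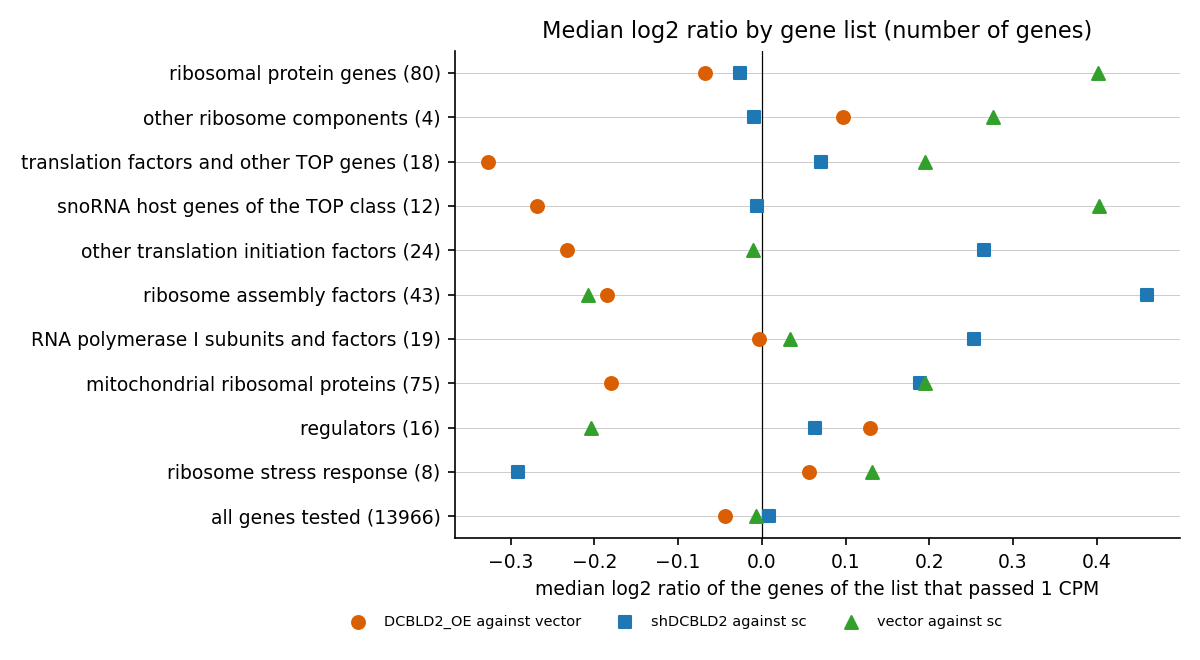
Median log2 ratio (horizontal axis) of the ribosomal protein genes, 9 related gene lists (one of translation factors and other TOP genes) and all genes tested in the 3 comparisons, with the number of genes that passed a mean of 1 CPM in brackets. In vector against sc the ribosomal protein genes (0.40) and snoRNA hosts (0.40) lie highest, and in shDCBLD2 against sc the ribosome assembly factors (0.46) do.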

How the data were processed

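The authors deposited read counts per gene (1 column per library) and FPKM values, which were tested to equal counts divided by exonic length and library total to within 0.005. The aligner and counter are not given in the sources used here. The submitters' processing notes name mm9, a mouse build, but gene identifiers and coordinates are human, so coordinates in the text come from RefSeq on GRCh38.p14 only. Deposited counts were scaled with TMM factors (edgeR 4.0.16, R 4.3.3), and log2 ratios used a prior count of 2 (Python 3.11.15, numpy 2.4.6, scipy 1.17.1, pandas 2.3.3). A gene was called at 2-fold or 1.5-fold where its 95% interval also left out no change. Ratio and interval code was tested on simulated data. Coding length, GC and shared windows came from GENCODE 29. The members, gene lists and tests were chosen with earlier results of these data known. Named members are the 5 highest and 5 lowest of each comparison and of mean FPKM, paralogs with their parents, called members and those at the count minimum. Some of these are not reported here. Of other lists, the highest and lowest genes were eligible and some are printed. RPL5, the stalk proteins, RPL37A, RPL41, RPS2P5, CDKN2A and MTAP were named after their values were seen. Alternatives were DESeq2 1.42.0 size factors, totals, other priors, thresholds, member sets, control and FPKM.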

Additional observations from a re-analysis of the deposited data

How the results depend on the processing

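Of 120 values under alternatives, 91 stayed within a set tolerance: for medians the half-width of a typical member's interval (0.0374 to 0.0383), which is wider than the error of a median, for sums and shares their own interval, and for counts 1.5 times. Within that tolerance the median of DCBLD2_OE against vector, -0.0685, was -0.0304 without overlapping members. That of shDCBLD2 against sc, -0.0263, was -0.0023 with DESeq2 size factors, -0.0583 with totals or FPKM, -0.0411 with at least 4000 counts and -0.0578 without members that share over 50% of windows. The difference between 40S and 60S medians ran from -0.0118 to 0.0263 in shDCBLD2 against sc and from -0.0109 to 0.0269 in vector against sc. With sc as the control library, the median of DCBLD2_OE turned from -0.07 to 0.30, the summed ratio from -0.03 to 0.40, and 6 members were 2-fold apart in place of 2, where 8.08% of all genes tested were 2-fold higher and 8.98% lower. The 1.5-fold threshold gave 13, 5 and 9 members in DCBLD2_OE against vector, shDCBLD2 against sc and vector against sc. With library totals alone, or with deposited FPKM, the median of vector against sc was 0.34, and with totals the summed ratios were -0.0124, -0.10 and 0.37 in the same order. DESeq2 size factors gave summed ratios of -0.0176 and -0.0408 in the first 2. Counts drawn down to the smallest library gave -0.0359 in the first. Without members that overlap another entry the summed ratios were -0.0162, -0.0779 and 0.42, and without members that share over 50% of windows, chosen after seeing the data, -0.056 and -0.0957 in the first 2. Pseudogene counts added to their parents gave -0.0219 in the first. With at least 4000 counts, 40S members exceeded 60S members by 0.0153 in place of 0.0775 in DCBLD2_OE against vector. The share of counts in sc, shDCBLD2, vector and DCBLD2_OE was 7.22%, 6.75%, 9.33% and 9.31% with pseudogene rows, and 7.50%, 6.98%, 9.79% and 9.56% without mitochondrially encoded genes in the total. The cause of these shifts was not tested. The other 2-fold counts stayed at 2, 0 and 0 under every scaling, drawing and prior tried, and 77 members stayed above 0 in vector against sc under all 4 scalings. Depth limits RPS28, RPL36A, RPS26 and RPL21 most, whose counts give wide intervals, and with 1 library per condition no difference can be set against biological spread.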
